A study of Mus musculus with 10 samples.

Results

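The genes described here encode the pore-forming subunits of mammalian potassium channels. They were taken as every protein-coding gene of the GENCODE vM21 annotation (GRCm38) whose symbol belongs to 1 of the potassium channel pore families, from the Shaker genes (Kcna) to the sodium-activated channels (Kcnt). All 77 were found by Ensembl identifier among the 47729 genes of the count table, 55 of them counted in every library. Expression was measured by RNA sequencing of total RNA from the brains of CF1 mice (strain label crlfcen:CF1) at postnatal day 56. Parents ate either normal-protein (NP) or low-protein (LP) food while they mated, and dams stayed on it through gestation and nursing. All pups, LP and NP alike, were weaned at postnatal day 21 and ate NP food for the 5 weeks after that. Both sexes gave prefrontal cortex and hippocampus, and males gave hypothalamus, with 1 library for each region, sex and diet, which gave 10 libraries in 5 LP and NP pairs. Nothing in the labels tells whether a library holds RNA of 1 animal or of a pool, nor whether regions came from the same animals, so that p-values measure only how far these libraries differ from each other, which may be technical.

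Potassium channels set the resting potential of neurons and glia and end the action potential. Voltage-gated (Kv) subunits assemble as tetramers and open on depolarization, while inward rectifiers (Kir) and 2-pore-domain channels (K2P) conduct near rest. Astrocytes carry a large inward rectifier conductance, built mainly on Kir4.1 (Kcnj10), which takes up the potassium that active neurons release. The members fell into 11 families: 8 Shaker-type genes (Kv1), 2 Shab-type (Kv2), 4 Shaw-type (Kv3), 3 Shal-type (Kv4), 10 electrically silent subunits that act only in heteromers (Kcnf, Kcng, Kcns and Kcnv), 8 ether-à-go-go-type genes (Kv10 to Kv12, Kcnh), 5 KCNQ genes, 4 large-conductance and sodium-activated genes (Slo), 4 small- and intermediate-conductance calcium-activated genes (SK), 15 inward rectifiers and 14 K2P genes.

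Library totals ranged from 7871010 to 16265481 counts. The smallest belonged to the female NP hippocampus library, in which chromosome 4 beyond Park7 and all of chromosomes 5 to 9, M, X and Y lacked counts. For the 22 members placed there this library was treated as missing, so that hippocampal values of those genes rest on 3 libraries. The dissections carried most of their region's marker genes, and the rest were called in the other direction. Of 16 hypothalamic markers 14 were higher and 2 lower in hypothalamus than in prefrontal cortex. Of 12 hippocampal markers 11 were higher and 1 lower in hippocampus than in prefrontal cortex. Of 10 cortical markers 7 were lower and 3 higher in hippocampus than in prefrontal cortex. Some libraries stood apart in markers of other tissues. The male NP hippocampus library had a summed pituitary marker level of 676 CPM (counts scaled to library depth), against 148 and 149 in the male and female LP hippocampus. In hypothalamus the summed pericyte and smooth muscle level was 243 CPM in NP and 494 in LP.

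All 11 families were detected in each region. Of the 77 members, 67 had at least 1 count in every library that counted them and 65 had a mean of at least 1 CPM. Kcnk16 had 0 counts throughout, which allows up to 0.18 to 0.29 CPM in a complete library (3 counts over its raw total, counting error only). Levels between genes were compared as CPM per kilobase of merged exons (FPKM), and 57 members had a mean of at least 1 FPKM over the regions. Among those below that level were Kcna7, Kcna10, Kcnj1, Kcnj15, Kcnk18 and Kcnv2, with at most 4 counts in any library, along with Kcnj13, Kcnk7 and Kcnk15, with at most 20. The highest level fell in prefrontal cortex for 32 members, in hippocampus for 21 and in hypothalamus for 23.

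Kcnj10, the astrocytic Kir4.1 gene (ENSMUSG00000044708; GRCm38 chromosome 1, 172341210 to 172374085), had the highest mean level of all members. It measured 69.2 ± 7.53 FPKM in prefrontal cortex (SD, n = 4), 54.0 ± 4.19 in hippocampus (n = 4) and 101.3 ± 4.08 in hypothalamus (n = 2). Kcnj4 (Kir2.3), a strong inward rectifier of forebrain neurons, matched it in prefrontal cortex at 71.0 ± 6.45 FPKM but measured 31.3 ± 0.90 in hippocampus and 4.46 ± 0.82 in hypothalamus. Among the other members in the 10 highest were Kcnj9 (Kir3.3), Kcnk1 (TWIK-1), the silent subunit gene Kcnf1 (Kv5.1), Kcnh3 (Kv12.2), Kcnd2 (Kv4.2) and Kcnc1 (Kv3.1). Their order was not firm, since the range over libraries overlapped for every pair of neighbours among these 10, and it differed by region. Kcnh3 measured 48.4 ± 2.30 FPKM in prefrontal cortex and 0.82 ± 0.21 in hypothalamus. Using the length of the longest transcript in place of merged exons left the same 10 genes at the top.

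**Figure D1:**
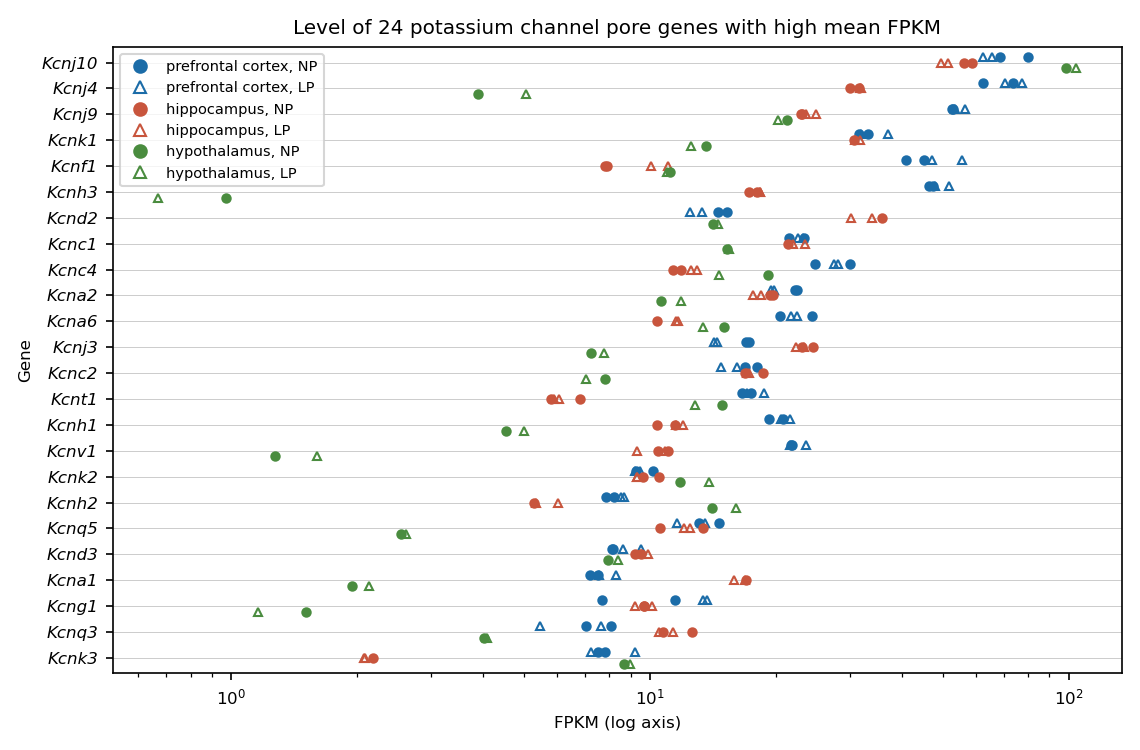
FPKM per library (x axis, log scale) of 24 members with high mean levels (y axis), by region (colour) and perinatal diet (filled circles NP, open triangles LP); each mark is 1 library. Kcnj10 lies highest in hypothalamus near 100 FPKM, while Kcnh3, Kcnj4 and Kcnv1 lie lowest there and highest in prefrontal cortex.

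Bases just upstream of the start are shown for 3 members whose levels the results below turn on, Kcnj10 as the most abundant and Kcnj16 and Kcnf1 as the members with the smallest p-values among positive diet differences over pairs (Kcnf1 did not pass there, as given below). The windows are the 250 bases before the annotated RefSeq start (GRCm38.p6), 5′ to 3′ on the gene's strand, with each match to the GC box GGGCGG or its reverse complement CCGCCC in capitals. Kcnj16 has 4 annotated starts, of which the first is printed.
Kcnj10, chr1:172340960-172341209, plus strand: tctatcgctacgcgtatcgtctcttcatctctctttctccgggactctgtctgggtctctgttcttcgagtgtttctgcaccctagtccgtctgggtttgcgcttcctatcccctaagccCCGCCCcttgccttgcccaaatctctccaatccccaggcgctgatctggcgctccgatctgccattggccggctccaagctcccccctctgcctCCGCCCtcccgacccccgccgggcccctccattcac
Kcnj16, chr11:110967783-110968032, plus strand: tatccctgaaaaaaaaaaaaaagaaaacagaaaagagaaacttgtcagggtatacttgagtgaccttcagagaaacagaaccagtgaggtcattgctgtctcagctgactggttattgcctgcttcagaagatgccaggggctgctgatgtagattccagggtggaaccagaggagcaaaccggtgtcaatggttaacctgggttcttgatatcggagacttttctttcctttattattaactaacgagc
Kcnf1, chr12:17176889-17177138, minus strand: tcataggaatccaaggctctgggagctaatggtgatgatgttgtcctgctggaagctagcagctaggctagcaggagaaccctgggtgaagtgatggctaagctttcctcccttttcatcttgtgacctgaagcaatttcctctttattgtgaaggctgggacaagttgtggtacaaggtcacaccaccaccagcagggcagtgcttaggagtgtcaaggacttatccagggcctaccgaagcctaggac
The Kcnj10 window held 62% G and C, 17 CpG dinucleotides and 2 GC box matches. Its partner gene Kcnj16 had 42.8% G and C and 3 CpG, and Kcnf1 had 51.2% and 1 CpG, both without a GC box match in the printed window. RefSeq windows were matched for 54 members (68 windows, several genes having more than 1 start). Over these the median was 60.4% G and C against 52.4% over all 32851 windows, and the GC box stood in 48.5% against 32.7%. TATAAA (both strands) was found in 3 member windows, 4.41% against 12.4% of all, and the cyclic AMP response core TGACG in 16.2% against 17.8%. These are matches of letters and not tested sites.

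The inward rectifiers held the largest family share of the summed level in every region, with 30.2 ± 0.75% of all member FPKM in prefrontal cortex (SD, n = 4 libraries), 25.3 ± 0.61% in hippocampus (n = 3 complete libraries) and 37.6 ± 1.08% in hypothalamus (n = 2). The sum itself was highest in prefrontal cortex, then hippocampus and hypothalamus, at 778.5 ± 26.2, 595.0 ± 6.36 and 424.6 ± 8.21 FPKM. Subunits of the G protein-gated (GIRK) channels, which slow neuronal firing when transmitters bind their receptors, differed in region. Kcnj9 averaged 54.0, 23.6 and 20.7 FPKM in prefrontal cortex, hippocampus and hypothalamus, Kcnj3 (Kir3.1) 15.7, 23.3 and 7.50, and Kcnj6 (Kir3.2) 2.07, 5.06 and 0.75. Kcnj5 (Kir3.4), the fourth of them, measured 3.58 ± 0.21 FPKM in hypothalamus, against 0.05 and 0.03 in prefrontal cortex and hippocampus. Kcnj16 (Kir5.1), which assembles with Kir4.1 into a pH-sensitive channel, had 4.34 ± 1.40, 2.59 ± 1.09 and 9.62 ± 1.68 FPKM. The subunits of the ATP-sensitive channels, Kcnj11 and Kcnj8, stayed at or below 6.01 FPKM in all region means.

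Among voltage-gated genes the Kv3 family, which lets neurons fire at high rates, took 10.9, 14.6 and 11.4% of the summed level in prefrontal cortex, hippocampus and hypothalamus. The Kv4 family, which carries the dendritic A-type current, took 3.34 ± 0.13% in prefrontal cortex and 7.70 ± 0.37% in hippocampus, and Kcnd2 within it measured 13.9 and 33.3 FPKM. The KCNQ genes, whose products form the M-current, took 7.38, 11.7 and 6.17%. Kcnq3 (7.06, 11.3 and 4.05 FPKM) was highest in hippocampus, whereas Kcnq5 (13.2, 12.1 and 2.58) had similar levels in both forebrain regions. Kcna1, an axonal low-threshold channel gene, measured 7.64, 16.6 and 2.04 FPKM, and its relative Kcna6 22.2, 11.2 and 14.2. Silent subunits made up 12.5% of the sum in prefrontal cortex, 8.67% in hippocampus and 4.74% in hypothalamus. The ether-à-go-go-type genes held 11.7, 6.62 and 6.46%.

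**Figure D2:**
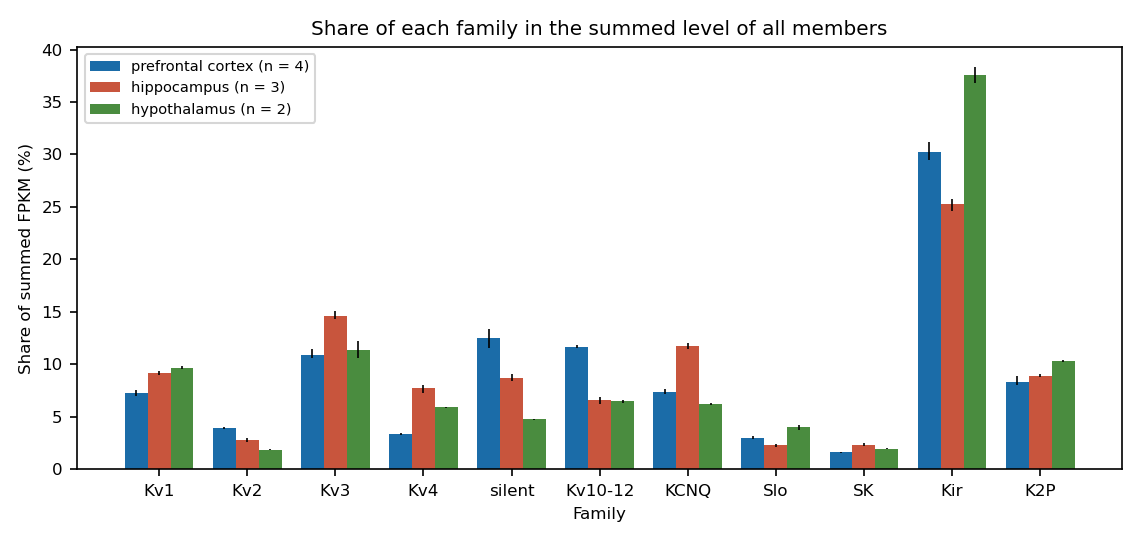
Share of each pore family in the summed FPKM of all members (y axis, percent), as the mean over libraries of a region with the lowest and highest library as error bars. Inward rectifiers stand highest in hypothalamus at 37.6%, and silent and ether-à-go-go-type subunits stand highest in prefrontal cortex at 12.5 and 11.7%.

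The calcium- and sodium-activated families had shares under 4% in every region (Slo 2.98, 2.29 and 3.98%, SK 1.61, 2.30 and 1.95%), and K2P genes took 8.33, 8.88 and 10.3%. Kcnt1, the sodium-activated Slack gene, led the Slo group with 17.4 FPKM in prefrontal cortex, 6.14 in hippocampus and 13.8 in hypothalamus, ahead of Kcnma1, the BK channel gene, at 2.59, 3.64 and 1.02. Of the SK genes Kcnn3 was highest in hypothalamus (2.23, 2.43 and 3.73 FPKM) and Kcnn2 in hippocampus (3.70, 6.04 and 2.21). Kcnk1 led the K2P genes with 33.5 FPKM in prefrontal cortex, 31.1 in hippocampus and 13.1 in hypothalamus, and Kcnk2 (TREK-1) followed with 9.51, 9.69 and 12.8. Kcnk3 (TASK-1), an acid-sensitive leak channel gene, had 7.94, 2.11 and 8.81.

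The first comparison between regions set hippocampus against prefrontal cortex, with sex and diet as additive terms. Of the 67 members that passed the low-count filter, 18 were higher and 30 lower in hippocampus and 19 did not pass the test (edgeR's quasi-likelihood test, Benjamini-Hochberg over all genes). That is 71.6% of the members called, where 53.6% of all 17550 genes were called (27.3% higher and 26.3% lower). The median log2 difference was -0.25 for these members and -0.01 for all genes. In bulk tissue, fewer cells of a type and less RNA per cell cannot be told apart. Oligodendrocyte markers moved in this comparison as well, with 12 of 12 higher in hippocampus and a summed level of 1731 to 2904 CPM in prefrontal cortex and 6128 to 6754 in hippocampus. All 7 pan-neuronal markers were tested and 6 were lower (median -0.19), at 7729 to 8138 CPM in cortex and 7140 to 7290 in hippocampus, and the part of either list in the channel differences was not tested.

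Kcng2, a silent subunit gene, had the largest increase in hippocampus. Its CPM in prefrontal cortex was 5.68 in male NP, 3.66 in male LP, 5.64 in female NP and 5.47 in female LP, and in hippocampus 18.4, 18.7, 24.3 and 24.2 in the same order. The difference was 4.18-fold (log2 2.06 ± 0.11 SE, adjusted p = 2.18e-09). The ranges were apart, which adds no support, as Kcng2 was chosen by size of difference in the same libraries. Kcnd2 went from 64.2 to 78.5 CPM in cortex to between 155 and 184 in 3 hippocampal libraries (1.31 ± 0.06, adjusted p = 2.58e-11). Kcnj6 (1.29 ± 0.08), Kcna1 (1.12 ± 0.07), Kcna4 (0.97 ± 0.08) and the SK gene Kcnn2 (0.71 ± 0.09) were also higher. Kcnh8, at 2 to 6 counts in cortex and 4 to 17 in hippocampus, had 41 summed counts against 13, a ratio of 3.03 (95% exact counting interval 1.59 to 6.17), its libraries overlapped between the regions, and 6 alternatives ended its call.

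Of the ether-à-go-go-type genes 7 of 8 were lower in hippocampus and Kcnh8 was higher (family median -0.84), and of 12 tested inward rectifiers 7 were lower and 2 higher (-0.50). Kcnh4, a neuronal Kv12 channel gene, measured 29.9 to 34.7 CPM in the 4 cortical libraries and 3.84 to 5.63 in the 4 hippocampal ones, a 6.58-fold difference (log2 -2.72 ± 0.10, adjusted p = 4.71e-11). Kcnh3 (-1.43 ± 0.05) and Kcnh6 (-1.34 ± 0.23) fell with it. Kcnf1 had 196 to 266 CPM in cortex and 37.3 to 52.9 in hippocampus, 5.12-fold less (-2.36 ± 0.08, adjusted p = 9.33e-12). The inward rectifier genes Kcnj12 (-1.99 ± 0.13) and Kcnj9 (-1.19 ± 0.04), the leak channel gene Kcnk3 (-1.88 ± 0.10) and Kcnt1 (-1.51 ± 0.06) completed the 8 largest decreases. The libraries of the 2 regions did not overlap for any of these 8 genes, with 3 hippocampal libraries for Kcnk3. As the 8 were chosen by size of difference in the same libraries, this adds no support to their calls.

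Hypothalamus differed more widely from prefrontal cortex: 15 members were higher, 42 lower and 10 did not pass, so 85.1% were called against 63.8% of all genes (33.3% higher and 30.5% lower). The median log2 difference was -0.69 for the members and 0.02 for all genes. Pan-neuronal markers were lower as well, 6 of 7 with a median of -0.71 and a summed level of 3988 and 4188 CPM in hypothalamus against 7729 to 8138 in cortex. All 10 microglial markers were lower and 12 of 12 oligodendrocyte markers higher. Of 12 astrocyte markers 4 were higher and 5 lower, with a summed level of 4877 and 4959 CPM in hypothalamus against 5499 to 6556 in cortex. What part these shifts have in the channel levels, that of Kcnj10 included, was not tested. Because only males gave hypothalamus, the fit takes the sex difference from the other regions.

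Kcnh3, which encodes the threshold-setting Kv12.2 channel of forebrain neurons (GRCm38 chromosome 15, 99224861 to 99242817), had the largest decrease. It measured 268 to 298 CPM in the 4 cortical libraries, 99.2 to 106 in hippocampus, and 5.58 (NP) and 3.85 (LP) in hypothalamus. The regions did not overlap, which adds no support, as Kcnh3 was chosen by size of difference in the same libraries. The difference from cortex was 57.3-fold (log2 -5.84 ± 0.10, adjusted p = 9.13e-15). Kcnh3 overlaps exons of Mcrs1 on the opposite strand, and the strand setting of the counting is not given in the sources used here. Kcnj4 fell from 134 to 167 CPM to 8.36 and 10.9 (-3.93 ± 0.09), and Kcnv1, a silent partner of Kv2 channels, from 98.8 to 108 CPM to 5.84 and 7.35 (-3.91 ± 0.11). The silent family fell together, 8 of 9 tested genes being lower with a family median of -2.03. Kcns1 (-3.16 ± 0.19) and Kcng1 (-3.01 ± 0.21) were among them, and Kcng2 did not pass. Kcng3, at 82 summed counts in cortex and 7 in hypothalamus, had a cortical excess of 9.16-fold (95% exact counting interval 4.25 to 23.5). Kcnk4 (TRAAK), a mechanosensitive leak channel gene, fell by 2.75 ± 0.16 and Kcnh4 by 2.49 ± 0.13. Kcnk4 shares exon sequence with Catsperz on the same strand, so reads of these genes may be split. In all 18 members overlap exons of another counted gene, among them Kcng2, Kcnj9, Kcnk3, Kcnn2 and Kcnq1 on the opposite strand, and their counts are uncertain to that extent.

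The 15 increases were led by Kcnj5, a GIRK subunit gene (GRCm38 chromosome 9, 32314707 to 32344350). It had 3, 3, 1 and 3 counts in the male NP, male LP, female NP and female LP cortical libraries and 300 and 295 in the NP and LP hypothalamus. Summed over libraries its level was 76.1-fold higher in hypothalamus (95% exact counting interval 41.1 to 159.5; adjusted p = 3.73e-12 in the fit). Kcna5 (Kv1.5) measured 1.56 to 4.03 CPM in cortex and 21.9 and 24.1 in hypothalamus (log2 3.48 ± 0.18, adjusted p = 4.23e-11). Kcnk5 (TASK-2) and Kcnh8 were low in cortex, at 19 and 13 summed counts, and their ratios of 7.47 (95% exact counting interval 4.57 to 12.9) and 12.8 (7.22 to 24.7) carry wide intervals. Kcnj16 stood at 10.9 to 22.5 CPM in cortex and 33.2 and 42.5 in hypothalamus (1.02 ± 0.13, adjusted p = 1.33e-05), and Kcnh6 rose by 1.01 ± 0.20. The calls of Kcnn4 (1.15 ± 0.41) and Kcnq1 (0.97 ± 0.39), both near 1 CPM, ended with DESeq2 (adjusted p = 0.200 and 0.265) and in 3 and 9 further alternatives. Some markers listed for neighbouring tissue were also higher in the hypothalamic libraries. Of 11 thalamic markers 6 were called higher and 1 lower, at a summed 621 and 648 CPM against 122 to 143 in cortex. Thalamic markers counted in all libraries, 6 of the 11, summed to 53.3 and 66.0 CPM in NP and LP hypothalamus. In cortex the same genes summed to 55.3 to 67.1, so the excess lay in the remaining thalamic markers. All 7 tested pituitary markers were higher, at 565 and 631 against 168 to 217 CPM. The part of either list in the higher channel genes was not tested.

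Against hippocampus, hypothalamus had 19 members higher, 37 lower and 11 not called, or 83.6% called where the figure for all genes was 60.5% (30.7% higher and 29.8% lower), with medians of -0.44 and 0.01. Pan-neuronal markers had 5 of 7 lower and 1 higher (median -0.51). All 12 oligodendrocyte markers were lower, and 6 of 9 pericyte and smooth muscle markers were higher. The part of these lists in the channel differences was not tested. Silent subunits were again mostly lower, 8 of 9 with a family median of -2.04, the exception being Kcnf1. Kcna1 fell from 75.8 to 81.2 CPM to 9.28 and 10.2 (log2 -3.01 ± 0.10, adjusted p = 9.39e-14), and Kcnj6 from 35.1 to 41.2 to 5.15 and 6.23 (-2.71 ± 0.12). Kcnh3 (-4.41 ± 0.11), Kcnv1 (-2.83 ± 0.11), Kcng1 (-2.77 ± 0.21), Kcnj4 (-2.76 ± 0.09) and Kcng4 (-2.44 ± 0.24) were among the 8 largest decreases, as was Kcng3, with 68 summed counts in hippocampus against 7.

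Higher than in hippocampus was first Kcnj5, with 595 summed counts against 5, a ratio of 119.7 (95% exact counting interval 51.0 to 370). Kcna5 followed at 21.9 and 24.1 CPM against 1.11 to 2.16 (4.26 ± 0.20, adjusted p = 1.05e-11). Kcnk3 measured 34.5 and 35.6 CPM against 8.24 to 8.67 (2.11 ± 0.11, adjusted p = 4.92e-11). Kcnk5 (2.39 ± 0.41), Kcnh6 (2.35 ± 0.23), Kcnh8 (2.27 ± 0.38), Kcnj16 (1.76 ± 0.14) and Kcnh2, the hERG channel gene (1.48 ± 0.08), made up the rest of the 8 largest increases.

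**Figure D3:**
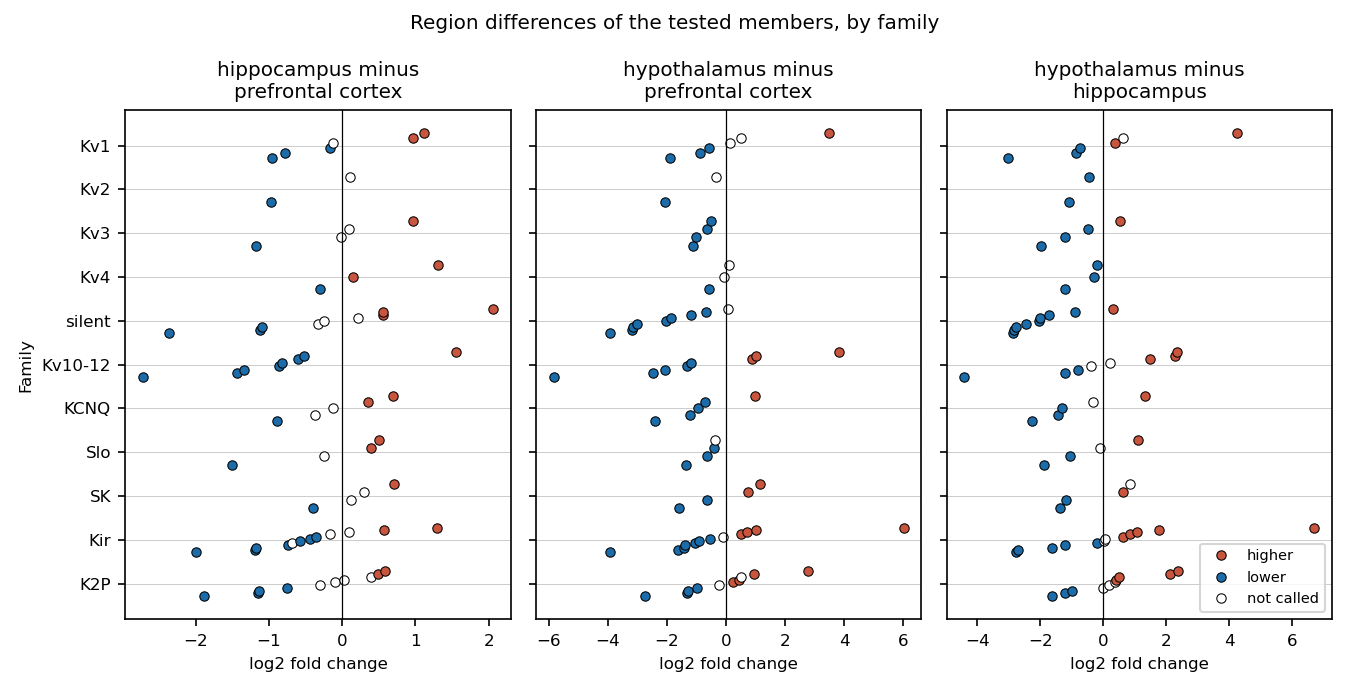
Fitted log2 fold change (x axis) of each tested member in the 3 region comparisons, by family (y axis); red points were called higher, blue points lower and white points were not called. Silent subunits lie mostly left of 0 in both hypothalamic comparisons, with 8 of 9 called lower in each. Against hippocampus the exception is Kcnf1, which was called higher in hypothalamus.

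Taking the 3 comparisons together sorts the tested members into profiles. A gene was counted as high in a region when it was called higher there than in both other regions. Prefrontal cortex was high for 23 members (34.3% of those tested, against 14.6% of all genes), hippocampus for 15 (22.4% against 13.1%) and hypothalamus for 13 (19.4% against 22.6%). Hypothalamus was lowest, by the same rule, for 32 members (47.8% against 21.1%), hippocampus for 12 (17.9% against 11.1%) and prefrontal cortex for 2, Kcnh8 and Kcnk13 (2.99% against 14.1%). All 3 comparisons called 36 members. Kcna3, Kcnj2 and Kcnu1 were called in none, and Kcnj2 (Kir2.1) averaged 3.00, 2.65 and 3.01 FPKM in prefrontal cortex, hippocampus and hypothalamus.

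Auxiliary subunits, which traffic the pores and shift their gating, also differed between regions. Of 23 tested among 28 listed, 8 were higher and 9 lower in hippocampus than in prefrontal cortex. Of all genes 27.3% were higher and 26.3% lower in that comparison. In hypothalamus 5 were higher and 14 lower than in prefrontal cortex (all genes 33.3% and 30.5%). Against hippocampus 7 were higher and 13 lower in hypothalamus (all genes 30.7% and 29.8%). Dpp10, which speeds Kv4 gating, measured 124 to 147 CPM in cortex and 29.5 to 34.9 in hippocampus (log2 -2.08 ± 0.07, adjusted p = 8.31e-12). Kcnab2, a Kv1 beta subunit gene, was 5.66-fold lower in hypothalamus than in hippocampus, and Lingo1 was lower in hypothalamus than in cortex by 3.03 ± 0.08. Kcne2, a small partner of several Kv channels, had 10, 19, 4 and 10 counts in the hippocampal libraries and at most 2 in the cortical ones (2.73 ± 0.51). Choroid plexus, which expresses Kcne2, left more transcripts in hippocampus too: 13 of 15 of its markers were higher and their sum was 164 to 280 CPM in 3 complete libraries against 15.0 to 27.9 in cortex. The part of the choroid plexus in the Kcne2 difference was not tested. Of the HCN genes, which encode the related hyperpolarization-activated cation channels, Hcn4 was higher in hypothalamus than in both, by 1.51 ± 0.18 against cortex and 2.68 ± 0.20 against hippocampus. Hcn3 was also higher there than in both (0.44 ± 0.09 and 1.26 ± 0.10), and Hcn2 was lower than in both (-0.45 ± 0.08 and -0.23 ± 0.08).

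Few pore genes differed by perinatal diet beyond the spread of these libraries. Over the 5 LP and NP pairs 1 of 67 members was called, Kcnj16, and it was higher in LP. The share was 1.49%, beside 1.38% of all 17547 genes (166 or 0.946% higher and 77 or 0.439% lower), so the count of called members is near the background. The median log2 difference was 0.01 over the members and -0.00 over all genes, and 34 members were positive and 33 negative.

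Kcnj16, the Kir5.1 gene (ENSMUSG00000051497; GRCm38 chromosome 11, 110968033 to 111027968), was counted in all libraries. In NP and then LP it had 171 and 295 counts in male prefrontal cortex, 114 and 203 in female prefrontal cortex, 108 and 190 in male hippocampus, 57 and 131 in female hippocampus, and 619 and 717 in hypothalamus. The corresponding CPM were 14.1 and 22.5, 10.9 and 20.95, 9.01 and 15.1, 4.93 and 11.8, and 33.2 and 42.5. LP was the higher library in 5 of 5 pairs, and within each region the LP and NP libraries did not overlap. As Kcnj16 was picked out by its call in the same libraries, this adds no support to that call. The fitted difference was 1.59-fold (log2 0.67 ± 0.11 SE, 5 pairs, adjusted p = 0.00877). It passed in all 11 alternatives tried, with adjusted p from 5.89e-05 to 0.0488 and log2 values from 0.61 to 0.86.

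Kcnj10, its partner, was not called. In the same order of pairs Kcnj10 had 432 and 355 CPM, 371 and 338, 318 and 279, 304 and 268, and 532 and 563, lower in LP in 4 of 5 pairs without passing the test (-0.14 ± 0.05, adjusted p = 0.200). Relative to the FPKM of Kcnj10, that of Kcnj16 was 4.48, 4.04, 3.89, 2.23 and 8.57% in the NP libraries and 8.69, 8.52, 7.42, 6.04 and 10.4% in the LP libraries. Kcnj2, next to Kcnj16 on chromosome 11 and named here for that position, had LP over NP log2 ratios of 0.13, 0.46, 0.49, -0.27 and 0.41.

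Markers of the cells that could carry Kcnj16 were read in the same libraries. None of 12 astrocyte markers was called with diet (median -0.07), and the summed level of the 10 counted in all libraries was 4758 to 6342 CPM in NP and 4687 to 6016 in LP. Of 15 choroid plexus markers 2 were higher in LP, Ttr and Slc13a4. The 8 counted in all libraries summed to 4.03 and 2.67 CPM in the male cortical NP and LP libraries, 3.44 and 3.72 in the female cortical ones, 121 and 227 in male and 54.5 and 207 in female hippocampus, and 66.6 and 63.3 in hypothalamus. All 15 markers summed to 18.7 and 15.0 CPM in the male and 19.1 and 27.9 in the female cortical NP and LP libraries. In hippocampus the sum of the 8 and Kcnj16 were both higher in LP. Ttr made up most of that sum there, at 104 and 207 CPM in male and 39.9 and 185 in female NP and LP libraries. Slc13a4 was lower in hippocampus than in prefrontal cortex (log2 -1.47 ± 0.26), whereas 13 of the 15 markers were higher. The part of choroid plexus in the Kcnj16 difference was not tested. Oligodendrocyte markers had 1 of 12 lower in LP and a median of -0.27.

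**Figure D4:**
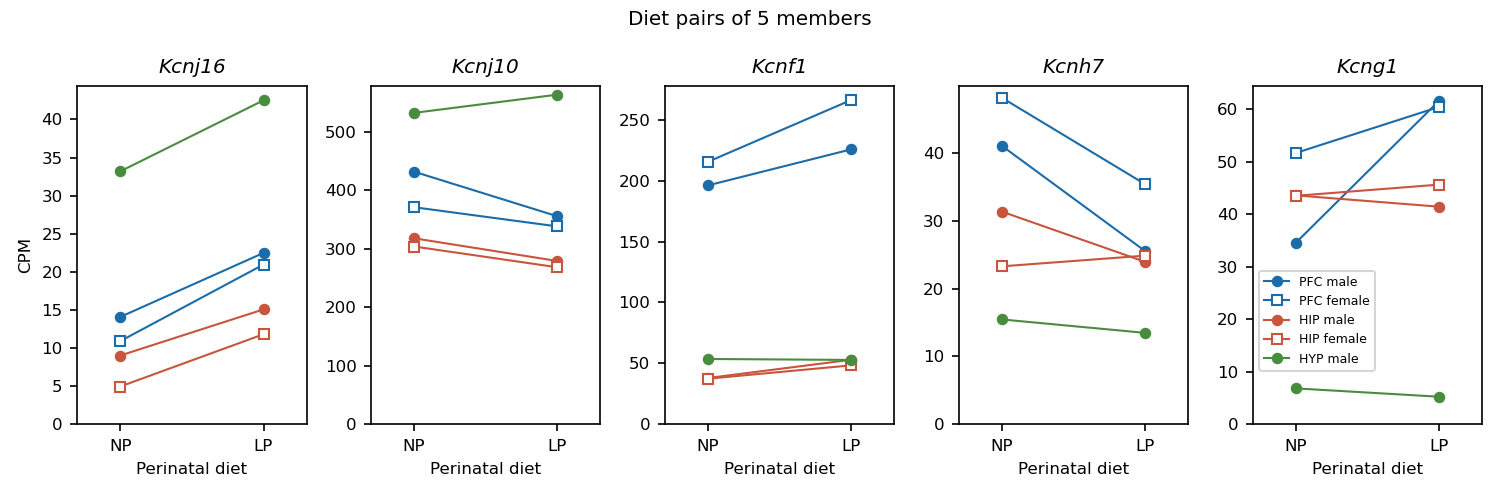
CPM (y axis, from 0, own scale per gene) of 5 members in the NP and LP library of each region and sex, with lines joining the pair; PFC is prefrontal cortex, HIP hippocampus and HYP hypothalamus. Kcnj16 is higher in LP in 5 of 5 pairs, and Kcnj10 is lower in LP in 4 of 5.

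After Kcnj16 the smallest p-values among positive differences were those of Kcnf1 (log2 0.25 ± 0.06, adjusted p = 0.0665) and Kcnk9, the TASK-3 gene (0.34 ± 0.09, adjusted p = 0.111). Kcnf1 was higher in LP in 4 of 5 pairs, at 196 and 226 CPM in male and 216 and 266 in female prefrontal cortex, 37.9 and 52.9 in male and 37.3 and 48.3 in female hippocampus, but 53.5 and 52.7 in hypothalamus. Without the hypothalamic pair it passed (0.32 ± 0.05, adjusted p = 0.00589), as it did with DESeq2. Among negative differences the smallest p-values were those of Kcnh7 (-0.35 ± 0.09, adjusted p = 0.0956), Kcnj10, and Kcnd2 (-0.16 ± 0.06, adjusted p = 0.239, 4 pairs).

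**Figure D5:**
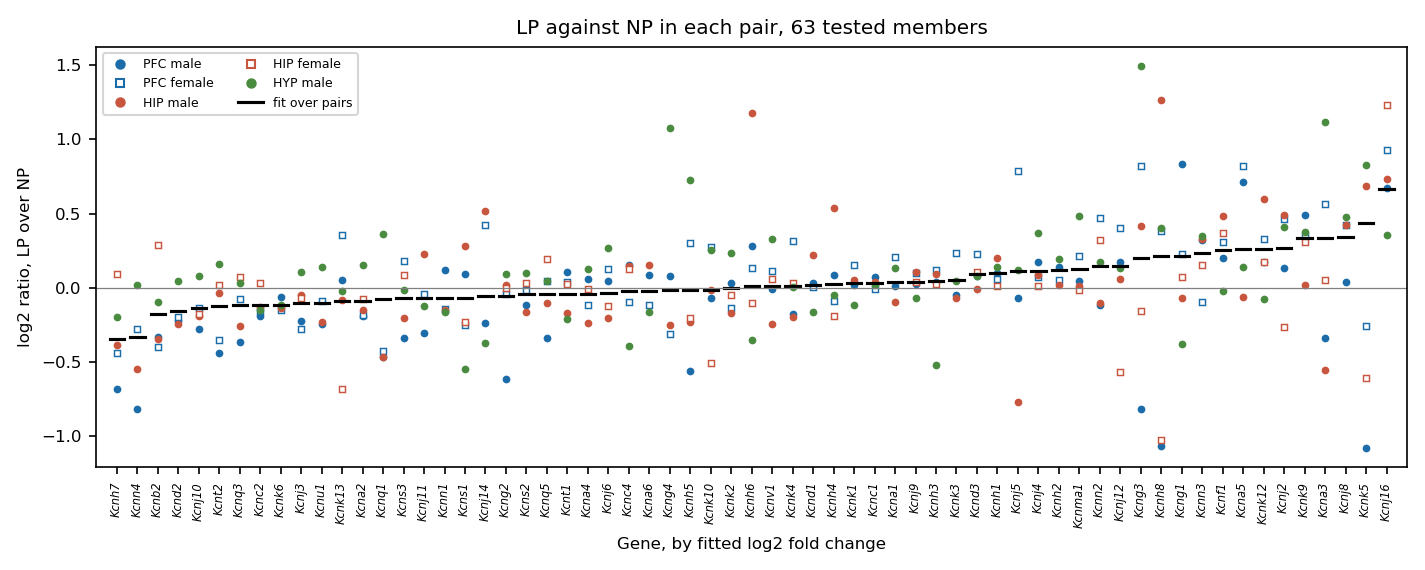
LP over NP log2 ratio (y axis) in each pair for 63 of the tested members, ordered by the fitted difference over pairs (black bars); colours mark regions, filled circles males and open squares females. Kcnj16, at the far right, has 5 positive pairs, and pairs of the low-count genes scatter most.

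Within prefrontal cortex 3 of the 49 members counted in all libraries and tested were called, where 1.25% of 11876 genes were (0.741% higher and 0.505% lower): Kcnj16 and Kcng1 were higher in LP and Kcnh7 was lower. The spread came from a fit of all 5 pairs with 1 diet coefficient per region and 2 residual degrees of freedom. Kcnj16 differed by 0.79 ± 0.13 on the log2 scale (adjusted p = 0.0106). Kcng1, a silent subunit gene, measured 34.6 and 61.6 CPM in the male NP and LP libraries and 51.7 and 60.5 in the female ones (0.53 ± 0.11, adjusted p = 0.0384). Most of that difference lay in the male pair, and without it the value was 0.23 (adjusted p = 0.767). Kcnh7, the erg3 channel gene, had 41.1 and 25.5 CPM in males and 48.2 and 35.4 in females (-0.56 ± 0.11, adjusted p = 0.0231), and it overlaps the opposite-strand gene Gca. None of the 3 calls held with DESeq2 (adjusted p = 0.842 for Kcnj16 and 1.00 for the other two) or without a low-count filter (0.124, 0.278 and 0.218 for Kcnj16, Kcng1 and Kcnh7). Those of Kcnj16 and Kcnh7 also ended on leaving out either prefrontal cortex pair (0.121 and 0.123 for Kcnj16, 0.550 and 0.0874 for Kcnh7), and that of Kcnh7 with additive sex (0.0872). In the same region 5 of 9 tested oligodendrocyte markers were lower in LP (median -0.52), and their part in these differences was not tested.

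In hippocampus 2 of 49 members were called, both higher in LP, where 0.261% of genes were called (0.177% higher and 0.0842% lower). Kcnj16 differed by 0.95 ± 0.16 (adjusted p = 0.0177) and Kcnf1 by 0.43 ± 0.08 (adjusted p = 0.0261), with positive ratios in both sexes for each. Neither call held with DESeq2 (adjusted p = 0.644 and 0.606) or without a low-count filter (0.260 and 0.289). The call of Kcnf1 also ended on leaving out either prefrontal cortex pair (adjusted p = 0.0533 and 0.0561) or the male hippocampus pair (0.456), and with additive sex (0.127). Kcnj10 was again negative, at -0.18 ± 0.05 (adjusted p = 0.387).

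The diet differences of the 2 regions were compared directly. No member of 49 and no gene of 11876 (0.0%) passed, with 5 members and 610 genes at an unadjusted p under 0.05 and 0 members called by DESeq2. The smallest p was that of Kcng1, whose difference in hippocampus was lower than that in prefrontal cortex by 0.53 ± 0.16 on the log2 scale (adjusted p = 0.856). On simulated counts this comparison recovered 78% of changes of 1 and 18% of changes of 0.5 on the log2 scale, so differences of that smaller size would mostly be missed.

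Hypothalamus had 1 pair, which allows no test, and log2 ratios of CPM are given with exact 95% Poisson intervals of the counts. Of 66 members with a mean of at least 1 CPM, 4 were higher and 3 lower in LP by more than 0.5, which is 10.6% beside 9.6% of all genes (6.48% higher and 3.12% lower). Kcna3 (Kv1.3), a channel gene of immune and glial cells as well as neurons, went from 35 counts (24.4 to 48.7) to 71 (55.5 to 89.6), a log2 ratio of 1.12. Kcng4 had 22 and 44 counts (1.07), Kcnk5 42 and 69 (0.83), Kcnh5 36 and 55 (0.72), Kcns1 35 and 21 (-0.55) and Kcnh3 104 and 65 (-0.52). Scaled to depth, the intervals of Kcnh5, Kcns1 and Kcnh3 overlapped between NP and LP, while those of Kcna3, Kcng4 and Kcnk5 were apart. The intervals of the 2 libraries, scaled to depth, were apart for 14 members, 21.2% beside 20.1% of all genes. The summed pericyte level of these 2 libraries, 243 and 494 CPM, and the summed hypothalamic marker level, 1293 in NP and 917 in LP, also differed, and their part was not tested.

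Females and males were compared within region and diet over prefrontal cortex and hippocampus. None of 63 tested members was called by edgeR or DESeq2, where 0.539% of 16703 genes were (0.269% higher and 0.269% lower). An unadjusted p under 0.05 was found for 11 of the 63 members and 1517 of the 16703 genes. Kcng2 (0.35 ± 0.10, adjusted p = 0.222), Kcnu1 (0.62 ± 0.20, adjusted p = 0.246) and Kcnk4 (0.31 ± 0.10, adjusted p = 0.333) had the smallest p-values on the female side. On the male side these were Kcnj16 (-0.35 ± 0.11, adjusted p = 0.305), Kcnj10 (-0.11 ± 0.04, adjusted p = 0.410) and Kcnt1 (-0.12 ± 0.05, adjusted p = 0.438). Kcnj16 was lower in the female library in each of the 4 combinations of region and diet, by 0.36 and 0.10 in NP and LP cortex and 0.85 and 0.35 in NP and LP hippocampus.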

How the data were processed

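RNA sequencing libraries (TruSeq) of 10 region, sex and diet groups were analysed. Raw read counts per Ensembl gene were deposited by the authors. CASAVA, FastQC 0.10.1, STAR 2.5.0a and the mm10 build are named in the submitters' processing notes; for the counting tool, annotation and strand setting nothing is stated. Members and gene lists were chosen with earlier results of these data known. Genes passing filterByExpr (minimum count 10) were fitted with edgeR 4.0.16 (quasi-likelihood F test, TMM scaling, R 4.3.3), and p-values were adjusted by Benjamini-Hochberg over all genes, with calls at 0.05. Region fits had additive sex and diet terms, and diet fits had a term per pair. Genes not counted in the female NP hippocampus library were fitted without it. CPM and FPKM were computed here from TMM-scaled library sizes, FPKM with merged exon lengths. Raw totals of 7871010 to 16265481 counts, without TMM scaling, put the floor of 3 counts at 0.18 to 0.38 CPM, the highest in the incomplete library. On the TMM-scaled sizes used for all other CPM the floor differs somewhat. Intervals cover counting error only. Named genes are the 8 largest calls per direction in region comparisons, and calls plus the 3 smallest p-values per direction in diet and sex comparisons; in the hypothalamic pair all past 0.5 on the log2 scale. Alternatives were DESeq2 1.42.0, other scalings, no low-count filter, other designs and leaving out libraries or pairs. Scripts were tested on simulated data. A few genes that these rules name are not reported here, though counts include them except in the check for single outlying libraries.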

Additional observations from a re-analysis of the deposited data

Results flagged for a closer look

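In 8 of 105 groups of 4 libraries of members with a mean of at least 1 CPM, 1 library lay far from the other 3, where chance gives about 1 group in 20. In male NP hippocampus Kcna4 was high at 36.2 CPM (others 30.7 to 31.2) and Kcnj4 low at 64.5 (others 68.1 to 68.6). This library also held the summed pituitary level of 676 CPM. In female LP prefrontal cortex Kcnk13 was high at 6.30 CPM (others 4.85 to 5.03) and Kcnv1 at 108.06 (others 98.8 to 100.1). In male LP prefrontal cortex Kcng2 was low at 3.66 CPM (others 5.47 to 5.68). In male NP prefrontal cortex Kcnk5 was high at 0.823 CPM (others 0.206 to 0.305), which is 10 counts against 4, 3 and 2. Kcnk5 reached a mean of 1 CPM only through hypothalamus (3.17 CPM, against 0.41 in prefrontal cortex and 0.55 in hippocampus). At such counts its flag carries little weight. In female NP hippocampus Kcnk10 was high at 5.71 CPM (others 3.96 to 4.00), and in female LP hippocampus Kcnk13 was low at 5.31 (others 8.40 to 8.92).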

How the results depend on the processing

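The number of members called over the 5 diet pairs was 1, with 2 by DESeq2 and 1 to 4 on leaving out a pair (2 without the female hippocampus pair, 4 without the hypothalamus pair). Within prefrontal cortex it was 3, with 0 by DESeq2, 0 without a low-count filter, 5 by edgeR's earlier method and 0 to 6 on leaving out a pair (0 without the male and 1 without the female prefrontal cortex pair, 6 without the female hippocampus pair). Within hippocampus it was 2, with 0 by DESeq2, 0 without a low-count filter, 1 with additive sex and 1 to 2 on leaving out a pair. Leaving out a library gave 44 to 48 calls for hippocampus against prefrontal cortex, 54 to 59 for hypothalamus against prefrontal cortex and 53 to 58 for hypothalamus against hippocampus. The interaction and the sex comparison gave 0 to 0. No named value changed sign in the alternatives run. Fits within a region that leave out a prefrontal cortex or hippocampus pair have 1 residual degree of freedom. With 1 library per region, sex and diet, differences between animals cannot be told apart from diet.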
